A study of Mus musculus with 8 samples.

Results

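The 9 nuclear genes examined here copy and transcribe the mitochondrial genome or look after its RNAs: Mterf2, Polrmt, Tfb1m, Tfb2m, Polg, Polg2, Ssbp1, Lrpprc and Slirp. They were chosen by name, as polymerases, transcription and termination factors and RNA stabilizers of mitochondria, with earlier results of these data known. All 9 were found, each on a single entry, among 43239 distinct gene names in the deposited tables. RNA had been sequenced from quadriceps muscle of 8 female mice aged 6 months, with a library from each mouse. The groups were 4 mice labelled Mss51-/- (KO) and 4 labelled wild type (WT); the labels name no other allele or treatment, and how the Mss51 allele was made is not given in the sources used here. The values are FPKM, fragment counts divided by transcript length and by library size, so levels may be compared between genes.

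Mitochondria carry their own small genome, which is transcribed into long RNAs that are then cut into messenger, ribosomal and transfer RNAs. Every protein that does this work is encoded in the nucleus and imported, so the abundance of mitochondrial RNA can depend on nuclear genes. Muscle, and its oxidative fibres above all, relies on this system, since the mitochondrial messenger RNAs encode core subunits of the respiratory chain.

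The library labels were checked first. Mss51, the gene named in the KO label, had 340, 201, 216 and 207 FPKM in the libraries labelled KO, against 22.9, 37.0, 27.5 and 24.8 FPKM in the libraries labelled WT. It was thus higher, not lower, in every library labelled KO (log2 fold change 3.07, SE 0.20, limma adjusted p = 0.000643). The entry covers the whole locus, so the reads cannot be placed on a deleted part, and every direction given here is that of the labels. Whether labels were exchanged was not tested, and an exchange would turn the sign of every difference between the groups. Across the 11878 tested genes, those with a mean of at least 1 FPKM, 6 passed an adjusted p of 0.05 (0.0505%), all higher in the libraries labelled KO. Of the muscle fibre markers, 4 of 6 tested had a log2 fold change above 0, beside 54.4% of all tested genes. In limma 0 of these 6 passed. The creatine kinase Ckm (-0.11) stood at 9230 to 11554 FPKM in the libraries labelled KO and 10545 to 12716 FPKM in those labelled WT. The fast myosin Myh4 was listed at 0 in all 8 libraries, and Tnnt3, a fast troponin, was listed at 0 in KO replicates 1 and 3 and WT replicates 2 and 4. Acta1 was not analysed here. In bulk muscle, fewer cells of a type and less RNA per cell cannot be told apart.

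KO replicate 1 stood apart from the other libraries labelled KO. Markers of slow or oxidative fibres, of which 8 of 9 had a log2 fold change above 0, 0 passed in limma and 0 were at 0 in all libraries, summed to 2897, 6684, 6089 and 6118 FPKM in the libraries labelled KO, against 2693, 2511, 3027 and 3107 FPKM in those labelled WT. KO replicate 1 was thus inside the WT range, and the other KO libraries were above it. Myoglobin (Mb), the oxygen store of oxidative fibres, made up most of these sums. Erythroid markers, 5 of 5 with a log2 fold change above 0, 0 past the test in limma and 0 at 0 in all libraries, summed to 3171 FPKM in KO replicate 1, 652 to 1598 FPKM in the other libraries labelled KO and 509 to 1334 FPKM in those labelled WT. In place of 6 genes, limma called 124 when KO replicate 1 was left out and 10 when KO replicate 2 was. The part of these markers in the results given here was not tested.

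Stretches of the sequence before 3 of the genes are shown here for the contrast between the member that separated the groups most (Mterf2), the mitochondrial RNA polymerase (Polrmt) and the single member with a negative log2 fold change (Tfb2m). The sequences are those of RefSeq on build GRCm38.p6, whose table held 10 windows for the 9 genes (2 starts for Mterf2), and they run 5′ to 3′ on the minus strand up to the base before the start site, without annotated exons. Capitals mark letters of the motifs named after them.
Mterf2 (chr10:85128028-85128277): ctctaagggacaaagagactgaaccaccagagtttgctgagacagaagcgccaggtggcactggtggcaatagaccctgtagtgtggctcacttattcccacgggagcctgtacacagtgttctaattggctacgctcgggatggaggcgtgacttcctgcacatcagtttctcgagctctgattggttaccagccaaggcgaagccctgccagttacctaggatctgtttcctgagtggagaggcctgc
Polrmt (chr10:79746582-79746831): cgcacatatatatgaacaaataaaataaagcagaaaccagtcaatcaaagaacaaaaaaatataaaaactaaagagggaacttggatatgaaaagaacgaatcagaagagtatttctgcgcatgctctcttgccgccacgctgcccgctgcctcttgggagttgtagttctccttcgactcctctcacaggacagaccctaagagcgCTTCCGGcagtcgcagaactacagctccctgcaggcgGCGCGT
Tfb2m (chr1:179546277-179546369): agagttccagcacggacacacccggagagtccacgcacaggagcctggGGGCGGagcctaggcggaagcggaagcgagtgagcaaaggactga
The window searched held 250 bases before and 50 after each start, on both strands, for an NRF1 motif (GCGCA, then any base, then GCGC), an ETS motif (CCGGAAG), an ERR motif (TNAAGGTCA), a YY1 motif (AAGATGGCG), an E-box (CACGTG) and a GC box (GGGCGG). NRF1, ETS factors such as GABP, ERR and YY1 are known regulators of nuclear genes for mitochondria. The Polrmt window held the ETS motif, read from the other strand as CTTCCGG, at positions -43 to -37 and overlapping NRF1 motifs at -6 to 3 and 0 to 9, counting the start base as 0. Its capital letters therefore end in the first part of an NRF1 motif that runs past the start. The printed stretch of Tfb2m shows a GC box, and the Mterf2 stretch, like both its windows, holds none of the 6 motifs. The ETS motif was in the windows of 5 members (Polrmt, Polg, Polg2, Ssbp1 and Slirp), and in 8.86% of all 32851 windows. The NRF1 motif was in the window of Polrmt among the members and in 4.6% of all windows, the YY1 motif in that of Slirp and in 1.4% of all windows, and the GC box in 5 members and in 35.7% of all windows. No member window held the ERR motif (1.28% of all windows) or the E-box (7.15%). A match is a description of letters and not a site.

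Levels spanned a wide range and kept nearly the same order in both groups. Slirp was the most abundant, with a mean of 118 FPKM over the 8 libraries, above 94.1% of the tested genes. Ssbp1 (29.2 FPKM), Lrpprc (21.5 FPKM) and Tfb2m (19.7 FPKM) followed, then Mterf2 (11.5 FPKM), Polg (11.4 FPKM) and Polrmt (10.8 FPKM). Tfb1m (7.46 FPKM) and Polg2 (3.23 FPKM) were lowest, with Polg2 above 22.8% of the tested genes. Of the neighbours in this order, Lrpprc and Tfb2m, Mterf2 and Polg, and Polg and Polrmt overlapped within both groups, so their order is not fixed beyond the spread. The other 5 steps were apart in the libraries labelled KO and in those labelled WT. In the libraries labelled KO, Mterf2 was above Polg in 4 of 4, and in those labelled WT in 1 of 4. For Lrpprc above Tfb2m these counts were 4 of 4 and 2 of 4, and for Polg above Polrmt 2 of 4 in both groups.

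**Figure D1:**
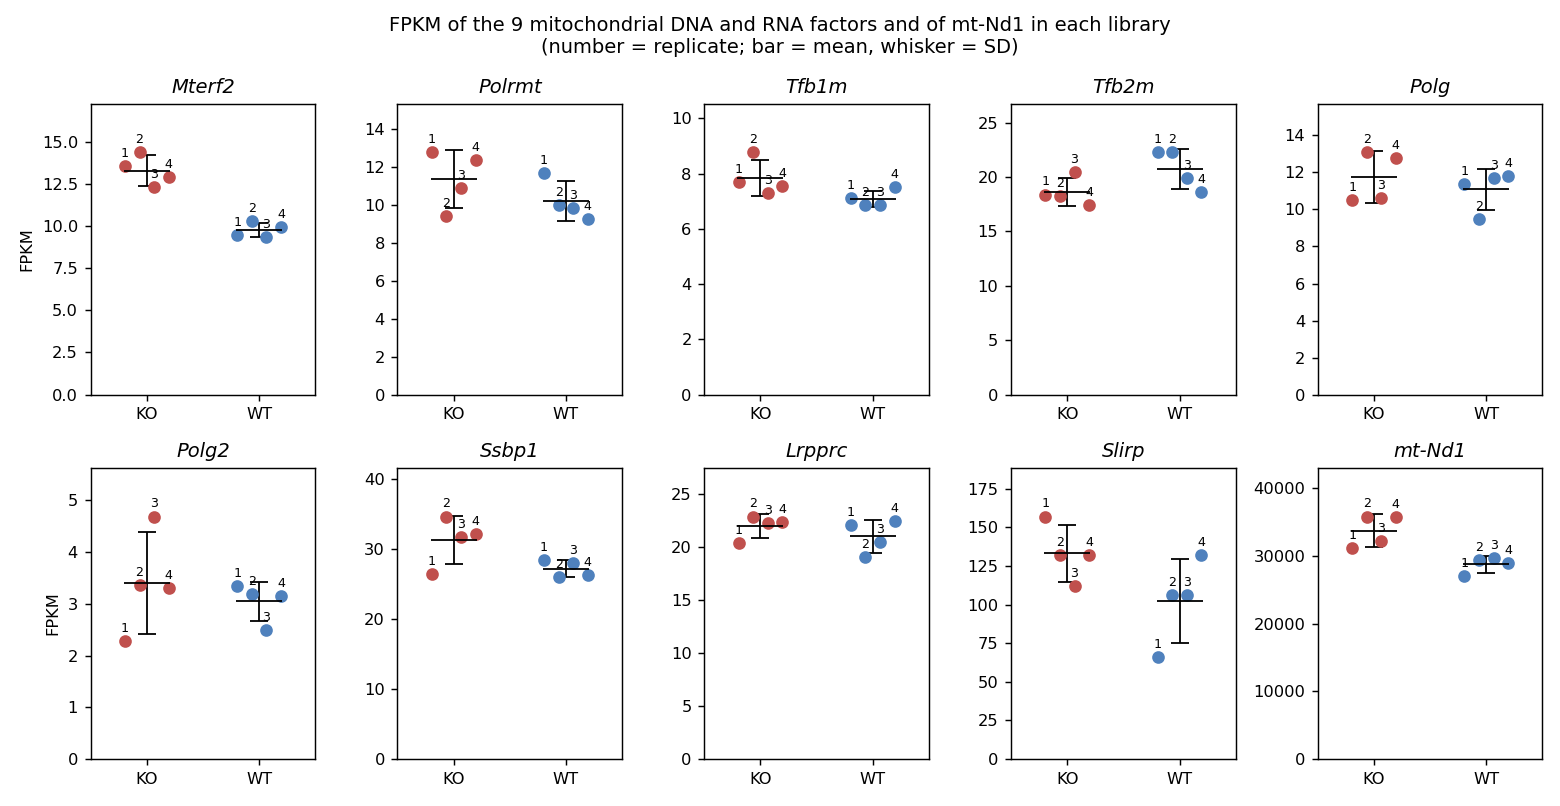
FPKM of each gene on axes that start at 0, with KO libraries (red) left of WT libraries (blue), replicate numbers above the points, and the mean and SD of 4. For Mterf2 and mt-Nd1 all KO points lie above all WT points, and for the other 8 genes the groups overlap.

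Mterf2 belongs to the family of mitochondrial transcription termination factors, whose members bind mitochondrial DNA or RNA, and in mice its loss lowers mitochondrial transcripts. It had 13.6, 14.4, 12.3 and 12.9 FPKM in the libraries labelled KO, against 9.49, 10.3, 9.38 and 9.98 FPKM in the libraries labelled WT. Every library labelled KO was above every library labelled WT. The means were 13.3 ± 0.892 FPKM and 9.78 ± 0.419 FPKM (KO and WT, SD, n = 4 each), a ratio of 1.36. The log2 fold change was 0.42 (SE 0.07, 95% interval 0.26 to 0.59), which did not pass the adjustment over all genes (limma adjusted p = 0.194). Its limma p of 0.000277 was the 16th smallest of 11878, and the exact permutation p was 0.0286, the smallest that 4 against 4 can give (two-sided, 0.143 adjusted over the 9 genes and mt-Nd1). Of all tested genes, 3.89% had every KO library above every WT library, and 1.61% the opposite; of the 9 members, 1 and 0 did so. Mterf2 (chromosome 10, 85119433 to 85128027, minus strand, mm10) shares 398 exonic bases, 22.7% of its own, with Tmem263 on the opposite strand. As no strand setting is given, reads there cannot be assigned, and Tmem263 itself stood at a log2 fold change of 0.08.

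Polrmt (chromosome 10, 79736123 to 79746581, minus strand, mm10 as for the positions that follow), the RNA polymerase of mitochondria, starts transcription at the mitochondrial promoters and also lays primers for DNA replication. It had 12.8, 9.41, 10.9 and 12.4 FPKM in the libraries labelled KO, against 11.7, 10, 9.86 and 9.29 FPKM in those labelled WT. The groups overlapped, with KO replicate 2 among the lowest libraries and WT replicate 1 among the highest. The log2 fold change was 0.14 (95% interval -0.12 to 0.40, limma adjusted p = 0.727). The ratio of Mterf2 to Polrmt within a library was 1.07, 1.53, 1.13 and 1.05 in the libraries labelled KO, against 0.808, 1.03, 0.951 and 1.07 in those labelled WT. These also overlapped, through WT replicate 4 (log2 difference 0.28, exact permutation p = 0.0857, 0.214 adjusted over 5 ratios of partner genes).

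Tfb2m and Tfb1m arose from the same ancestral RNA methyltransferase and have parted in role: Tfb2m melts the promoter for Polrmt, while Tfb1m methylates the small ribosomal RNA of the mitochondrial ribosome. Tfb2m (chromosome 1, 179528055 to 179546267, minus strand) had 18.4, 18.3, 20.5 and 17.4 FPKM in the libraries labelled KO, against 22.3, 22.3, 19.9 and 18.6 FPKM in those labelled WT. It was the single member with a negative log2 fold change (-0.15, 95% interval -0.34 to 0.04, limma adjusted p = 0.579), and the groups overlapped through KO replicate 3 and WT replicates 3 and 4. Tfb1m (chromosome 17, 3519256 to 3557781, minus strand) had 7.70, 8.78, 7.31 and 7.54 FPKM in the libraries labelled KO, against 7.11, 6.87, 6.85 and 7.5 FPKM in those labelled WT. Of its 4 KO values, 3 were above every WT value, and the log2 fold change was 0.13 (95% interval -0.05 to 0.31, limma adjusted p = 0.608). The ratio of Tfb2m to Tfb1m within a library, which does not depend on how libraries are scaled, was 2.39 ± 0.298 in the libraries labelled KO and 2.94 ± 0.335 in those labelled WT (SD, n = 4 each). On the log2 scale that ratio differed by -0.28 between the groups, which overlapped (exact permutation p = 0.0571, 0.214 adjusted over the same 5 ratios). With 4 libraries against 4, a single ratio could not pass this adjustment even with groups fully apart. The adjusted value is therefore no verdict on this ratio. The entries of 5 members (Tfb1m, Polg, Polg2, Ssbp1 and Slirp) span loci in the files that reach past the annotated gene. Tfb1m shares 142 exonic bases with Tiam2, Polg 921 with Fanci and Polg2 132 with Milr1, each on the opposite strand. Tiam2, Fanci and Milr1 averaged 1.5, 0.0538 and 0.741 FPKM.

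DNA replication was represented by Polg, the catalytic subunit of the mitochondrial DNA polymerase, Polg2, its accessory subunit, and Ssbp1, which coats single-stranded mitochondrial DNA at the fork. Ssbp1 (chromosome 6, 40471352 to 40484700, plus strand) had 26.4, 34.6, 31.7 and 32.1 FPKM in the libraries labelled KO, against 28.4, 25.9, 28.0 and 26.3 FPKM in those labelled WT. KO replicates 2, 3 and 4 were above every WT library and KO replicate 1 was inside the WT range. Its log2 fold change was 0.19 (95% interval -0.01 to 0.39, limma adjusted p = 0.508), or 0.27 without KO replicate 1 (limma adjusted p = 0.142). The summed oxidative fibre markers, too, were inside the WT range in KO replicate 1 and above it in KO replicates 2, 3 and 4. Mterf2 was above every WT library in KO replicate 1 as well, and stood at 0.41 without it (limma adjusted p = 0.0711). Polg (chromosome 7, 79446231 to 79466362, minus strand) ranged from 10.5 to 13.1 FPKM in the libraries labelled KO and from 9.47 to 11.8 FPKM in those labelled WT, with a log2 fold change of 0.07 (95% interval -0.17 to 0.31). Polg2 (chromosome 11, 106768253 to 106779537, minus strand) had 2.28, 3.37, 4.69 and 3.30 FPKM in the libraries labelled KO, against 3.35, 3.20, 2.49 and 3.16 FPKM in those labelled WT. It held both its lowest and its highest value in the libraries labelled KO, and its log2 fold change of 0.11 (95% interval -0.31 to 0.53) was -0.04 without KO replicate 3. The ratio of Polg to Polg2 was 3.65 ± 0.981 in the libraries labelled KO and 3.70 ± 0.741 in those labelled WT (SD, n = 4 each; log2 difference -0.04, exact permutation p = 0.943). The ratio of Ssbp1 to Polg was 2.67 ± 0.221 and 2.46 ± 0.212 in the libraries labelled KO and WT (log2 difference 0.12, exact permutation p = 0.229).

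Lrpprc and Slirp form a complex that binds mitochondrial messenger RNAs, keeps them from decay and favours their polyadenylation. Lrpprc (chromosome 17, 84705247 to 84790789, minus strand) was the steadiest member in the libraries labelled KO, with 20.4, 22.9, 22.3 and 22.4 FPKM there, against 22.1, 19.1, 20.5 and 22.5 FPKM in those labelled WT. The log2 fold change was 0.06 (95% interval -0.11 to 0.23, limma adjusted p = 0.813), and the groups overlapped over most of their range. Slirp had 157, 132, 112 and 132 FPKM in the libraries labelled KO, against 66.1, 106, 106 and 132 FPKM in those labelled WT. Its log2 fold change of 0.41 was nearly that of Mterf2, but with an SE of 0.20 its interval ran from -0.04 to 0.86 (limma adjusted p = 0.526). WT replicate 1 was far below the other 7 libraries, and without it the log2 fold change of Slirp was 0.21. Exons of Snw1 on the opposite strand cover 2914 bases, or 93.9%, of the annotated exonic bases of Slirp (chromosome 12, 87443896 to 87452206, plus strand), so its reads cannot be assigned with certainty. The ratio of Lrpprc to Slirp was 0.168 ± 0.0288 in the libraries labelled KO and 0.220 ± 0.0767 in those labelled WT (log2 difference -0.35, exact permutation p = 0.257).

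**Figure D2:**
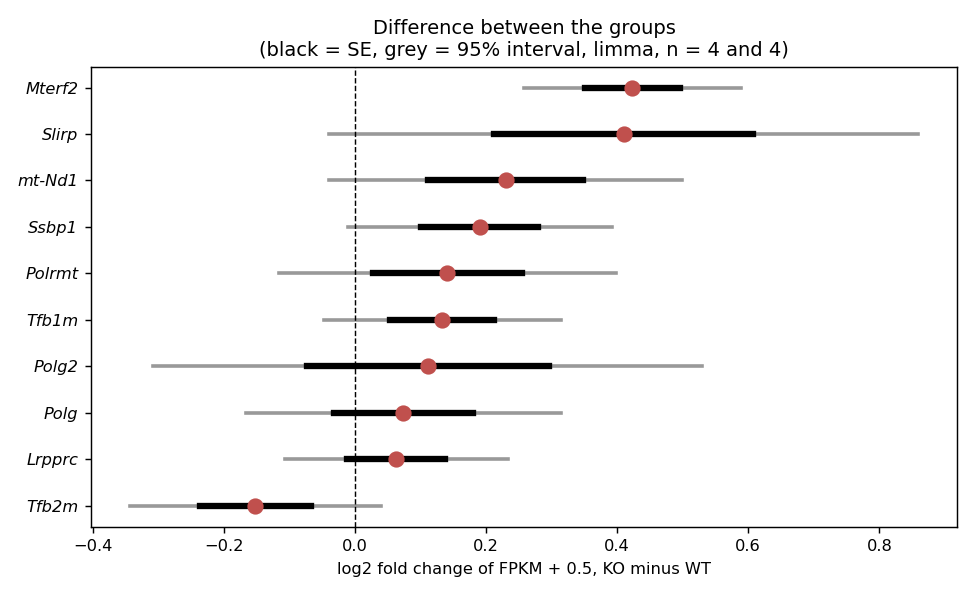
Log2 fold change of FPKM + 0.5, KO minus WT, for the 9 genes and mt-Nd1, with the SE in black and the 95% interval in grey. The interval of Mterf2 (0.26 to 0.59) lies above 0, and the intervals of the other 9 genes include 0.

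Counted together, 8 of the 9 members had a log2 fold change above 0, beside 54.4% of all tested genes. As the members were chosen with earlier results of these data known, such counts are a description. Their median was 0.13, beside 0.02 for all tested genes, and 0 of the 9 passed in limma, beside 0.0505% of all. At an unadjusted p under 0.05, 1 member was higher and 0 were lower, beside 7.5% and 2.76% of all tested genes. Under TPM rescaling, which gives every library the same total over its named genes, the median of all genes shifted to -0.18 and 2 of the 9 log2 fold changes were above 0, those of Mterf2 and Slirp. In that rescaling 8 of 9 members stayed above the median of all genes, the same number as before it, and 119 genes of the whole table passed in limma. The totals used there rest on single entries: Atg7 held 54.9% of the named FPKM in KO replicate 4, and Gm22953 held 41.8% in WT replicate 3.

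The relation to mitochondrial transcripts was examined with mt-Nd1, a messenger RNA of the mitochondrial genome that encodes a complex I subunit (chrM, 2751 to 3707, plus strand). Its entry spans 2751 to 3842 and so reaches past the annotated gene. Among the mitochondrial messenger and ribosomal RNA entries, mt-Nd1 had the highest listed value in every library, though several messages were listed at 0. It had 31114, 35807, 32257 and 35726 FPKM in the libraries labelled KO, against 26960, 29434, 29625 and 28875 FPKM in those labelled WT. Every library labelled KO was above every library labelled WT, by 17.4% in the means. The log2 fold change was 0.23 (SE 0.12, 95% interval -0.04 to 0.50, limma adjusted p = 0.541; exact permutation p = 0.0286, 0.143 adjusted over the 10 genes), but -0.06 after quantile normalization. Other mitochondrial messages overlapped between the groups: mt-Nd2 ranged from 18126 to 23010 FPKM in the libraries labelled KO and from 17218 to 19450 FPKM in those labelled WT. The ribosomal RNA mt-Rnr1, on whose transcription the same polymerase works, ranged from 3567 to 4863 FPKM in the libraries labelled KO and from 3036 to 4767 FPKM in those labelled WT. Libraries were made from poly(A)-selected RNA with ribosomal depletion, so that level is not a measure of its transcription. The levels of mt-Nd1 and the other messages went through the same selection and do not measure transcription alone. The entries mt-Co1, mt-Atp6 with mt-Atp8 and mt-Co3, and mt-Nd4 with mt-Nd4l were listed at 0 in all 8 libraries, and mt-Cytb in KO replicate 2. mt-Co2 was listed at 0 in KO replicates 2 and 3, at 143.4 and 143.2 FPKM in KO replicates 1 and 4, and at 128.8 to 148.9 FPKM in the libraries labelled WT. mt-Nd1 thus stands for a genome that the tables show only in part.

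Within each library, the members were then set against mt-Nd1 as a log2 difference, which does not depend on scaling between libraries. For Mterf2 that log2 difference was -11.25 ± 0.11 in the libraries labelled KO and -11.45 ± 0.07 in those labelled WT (SD, n = 4 each), so that it was higher by 0.19 in the libraries labelled KO. For Tfb2m it was -10.78 ± 0.18 in the libraries labelled KO and -10.40 ± 0.16 in those labelled WT, a difference of -0.38. In both cases the groups did not overlap (exact permutation p = 0.0286, 0.129 adjusted over the 9 members), though in opposite directions. mt-Nd1 itself was higher in the libraries labelled KO (log2 fold change 0.23), which by itself lowers each of these differences there. Tfb2m alone overlapped between the groups (-0.15). The share of all tested genes that separate on this difference was not computed. The other 7 differences ran from -0.17 for Lrpprc to 0.18 for Slirp, all with overlapping groups, and 0 of the 9 passed the adjustment. The smallest exact permutation p that 4 against 4 can give is 0.0286. A single member with groups fully apart could therefore not pass this adjustment.

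**Figure D3:**
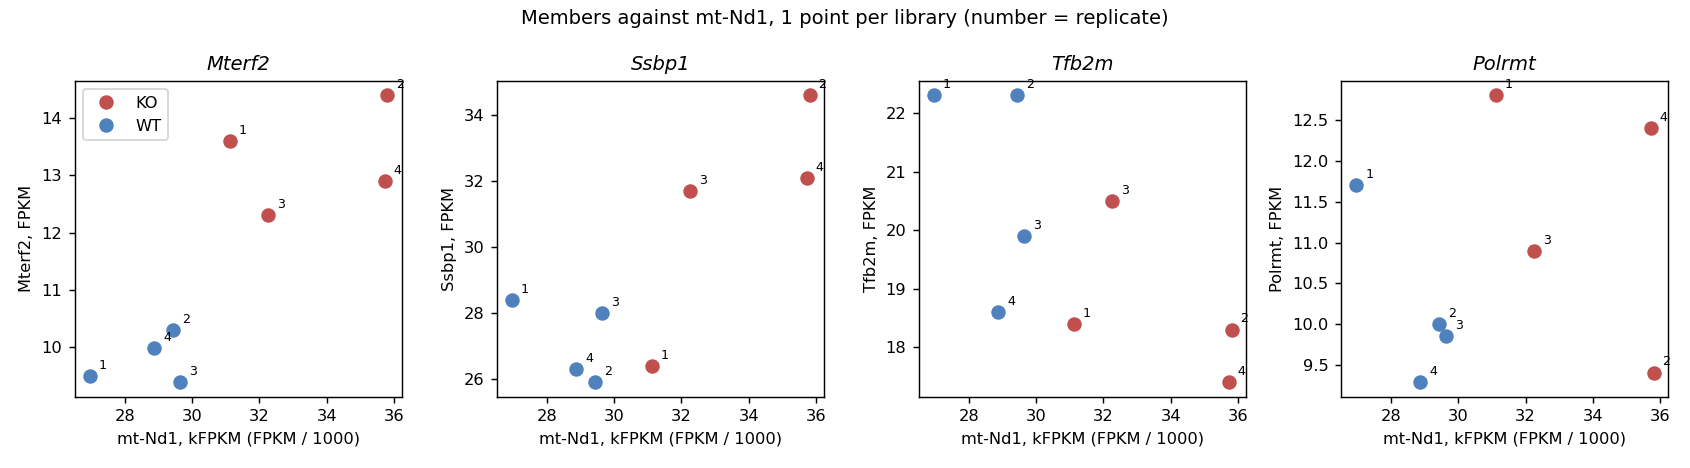
FPKM of Mterf2, Ssbp1, Tfb2m and Polrmt against mt-Nd1 in kFPKM, with a point for each library and KO in red, WT in blue; axes do not start at 0. The Mterf2 points fall into separate KO and WT clusters. Polrmt shows no order along mt-Nd1 over both groups together (r 0.09), while with the group means removed r was -0.58.

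Across libraries, log2 levels of the members were compared with those of mt-Nd1, in 9 relations adjusted together. For Mterf2 the libraries form a KO cluster and a WT cluster, so no r is given over both. With the group means removed r was 0.34, as a description. Over both groups the adjusted exact permutation p was 0.0616 for Pearson r and 0.173 for Spearman rho. Without KO replicate 1 that of r was 0.0339, and removal of no other single library took it under 0.05. As both genes separate the groups, these p-values cannot be told apart from that separation. Ssbp1 had a Pearson r of 0.79 (exact permutation p = 0.0227, adjusted 0.102) and a Spearman rho of 0.71 (p = 0.0576, adjusted 0.173) over 8 libraries. Without the 2 libraries farthest from the median of mt-Nd1, KO replicates 2 and 4, its r was 0.37. Leaving out such libraries also narrows the range of mt-Nd1, which can lower an r by itself. Tfb2m had an r of -0.71 (exact permutation p = 0.0530, adjusted 0.119) and a rho of -0.74 (p = 0.0458, adjusted 0.173), with an r of -0.44 without those libraries. Tfb1m had an r of 0.69 (exact permutation p = 0.0523, adjusted 0.119) and a rho of 0.62 (p = 0.115, adjusted 0.207), with an r of 0.34 without them. Slirp had an r of 0.62 (exact permutation p = 0.0892, adjusted 0.161) and a rho of 0.67 (p = 0.0831, adjusted 0.187), with an r of 0.69 without them. For Polrmt r was 0.09 (exact permutation p = 0.832) and rho 0.12 (p = 0.793), and for Lrpprc 0.38 (exact permutation p = 0.333) and 0.40 (p = 0.327). For Polg r was 0.51 (exact permutation p = 0.201) and rho 0.43 (p = 0.299), and for Polg2 0.21 (exact permutation p = 0.631) and 0.33 (p = 0.428). Over the 8 libraries, 0 of the 9 relations passed the adjustment. Since mt-Nd1 itself did not overlap between the groups, these values also carry the difference between the groups. With the group means removed, as a description, r was 0.56 for Ssbp1, -0.46 for Tfb2m, 0.32 for Tfb1m and 0.30 for Slirp. It was -0.58 for Polrmt, 0.13 for Lrpprc, 0.54 for Polg and 0.04 for Polg2.

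Other genes of the same pathway, 91 in 7 lists by role, were read from the same fit. These lists, too, were chosen with earlier results of these data known. Of the 88 that were tested, 73 had a log2 fold change above 0 (median 0.12), 0 passed in limma, and 22 were higher and 2 lower at an unadjusted p under 0.05. Of all tested genes, 54.4% were above 0 (median 0.02), 0.0505% passed, and 7.5% were higher and 2.76% lower at that p. The counts of each list that follow have the same shares beside them. In 10 of the 88 every library labelled KO was above every library labelled WT, and in 1 below, beside 3.89% and 1.61% of all tested genes.

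Transcription and termination genes lay furthest above the median of all genes. All 4 that were tested (Mrpl12, Mterf4, Tefm and Mterf3) were above 0, with a median of 0.27, and each had an unadjusted p under 0.05; Mterf1a and Mterf1b were below the filter. Mrpl12, a ribosomal protein that also binds Polrmt, had 102, 107, 108 and 98.2 FPKM in the libraries labelled KO, against 63.6, 85.4, 77.3 and 88.4 FPKM in those labelled WT. Its groups did not overlap (log2 fold change 0.41, limma adjusted p = 0.347). Tefm, the elongation factor of Polrmt, had 17.0, 20.6, 23.0 and 18.1 FPKM in the libraries labelled KO, against 16.3, 16.2, 15.7 and 17.4 FPKM in those labelled WT (0.25, limma adjusted p = 0.440). Mterf3, a repressor of mitochondrial transcription in mice, averaged 20.7 ± 1.18 FPKM in the libraries labelled KO and 17.8 ± 1.71 FPKM in those labelled WT (SD, n = 4 each; 0.21, limma adjusted p = 0.439).

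The list of mitochondrial DNA packaging, replication and nucleotide supply was near the median of all genes. It had 14 of 16 tested genes above 0 with a median of 0.05. Tfam, which packages mitochondrial DNA and bends the promoter for Polrmt, had 29.4, 24.2, 26.8 and 23.1 FPKM in the libraries labelled KO, against 21.8, 28.1, 22.6 and 28.8 FPKM in those labelled WT, with groups that overlapped throughout (0.03); it was chosen after its values were seen. Tymp, a thymidine phosphorylase on an entry joined with Sco2, stood at 0.33 (limma adjusted p = 0.372), Rnaseh1, which removes RNA primers, at 0.31 (0.384) and the mitochondrial topoisomerase Top1mt at 0.15 (0.621). Mpv17 was not analysed here.

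RNA cleavage, poly(A) and decay genes were split, with 6 of 11 above 0 and a median of 0.01. Prorp, the nuclease subunit that cuts the 5′ ends of mitochondrial transfer RNAs, had 6.39, 6.21, 6.39 and 7.10 FPKM in the libraries labelled KO, against 8.49, 8.67, 6.85 and 9.31 FPKM in those labelled WT. It had the lowest log2 fold change of the 88 (-0.32, limma adjusted p = 0.353), and the groups overlapped through WT replicate 3. Hsd17b10, a partner subunit of that enzyme, stood at 0.12 (limma adjusted p = 0.712), and Pnpt1, an RNA-degrading phosphorylase, at 0.24 (0.503).

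RNA-binding proteins had 15 of 16 genes above 0 with a median of 0.17, and 6 were higher at an unadjusted p under 0.05. In 4 of these 6 (Fastk, Fastkd3, Ptcd3 and Rpusd4), and also in Ptcd1, every library labelled KO was above every library labelled WT. Fastk, the founder of a family of mitochondrial RNA-binding proteins, had 135, 148, 144 and 147 FPKM in the libraries labelled KO, against 113, 123, 125 and 118 FPKM in those labelled WT (log2 fold change 0.26, SE 0.06, limma adjusted p = 0.347). Rpusd4, a pseudouridine synthase, stood at 0.26 (limma adjusted p = 0.357) and Ptcd3, a pentatricopeptide protein of the mitochondrial ribosome, at 0.20 (0.411).

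Modification enzymes of ribosomal and transfer RNA had 16 of 18 genes above 0 (median 0.16). Trnt1, which adds the CCA end to transfer RNAs, stood at 0.37 (limma adjusted p = 0.353). Gtpbp3, which modifies the wobble base of transfer RNAs, stood at 0.26 (0.347) and the ribosomal RNA methyltransferase Mrm3 at 0.22 (0.453). Translation factors had 12 of 14 genes above 0 (median 0.17), with 6 higher and 1 lower at an unadjusted p under 0.05. Tsfm, which recharges the elongation factor Tufm, averaged 22.7 ± 2.28 FPKM in the libraries labelled KO and 16.7 ± 2.80 FPKM in those labelled WT (SD, n = 4 each; 0.44, limma adjusted p = 0.347). Gfm2, which takes ribosomes apart after translation, had 27.5, 26.1, 30.3 and 26.7 FPKM in the libraries labelled KO, against 30.8, 31.5, 32 and 31 FPKM in those labelled WT (-0.18, limma adjusted p = 0.414). It was the single related gene in which every library labelled KO was below every library labelled WT. Mtg2, a GTPase of ribosome assembly, stood at 0.30 (0.384).

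Nuclear regulators of this program had 6 of 9 genes above 0 (median 0.05). Esrra, the nuclear receptor ERR alpha, had 58.6, 65.9, 65.1 and 64.1 FPKM in the libraries labelled KO, against 51.8, 53.9, 56.6 and 56.2 FPKM in those labelled WT. Its groups did not overlap, and it did not pass (log2 fold change 0.21, SE 0.06, limma adjusted p = 0.353). Pprc1, a coactivator related to PGC-1, stood at 0.26 (limma adjusted p = 0.509) and Yy1 at -0.06 (0.780).

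**Figure D4:**
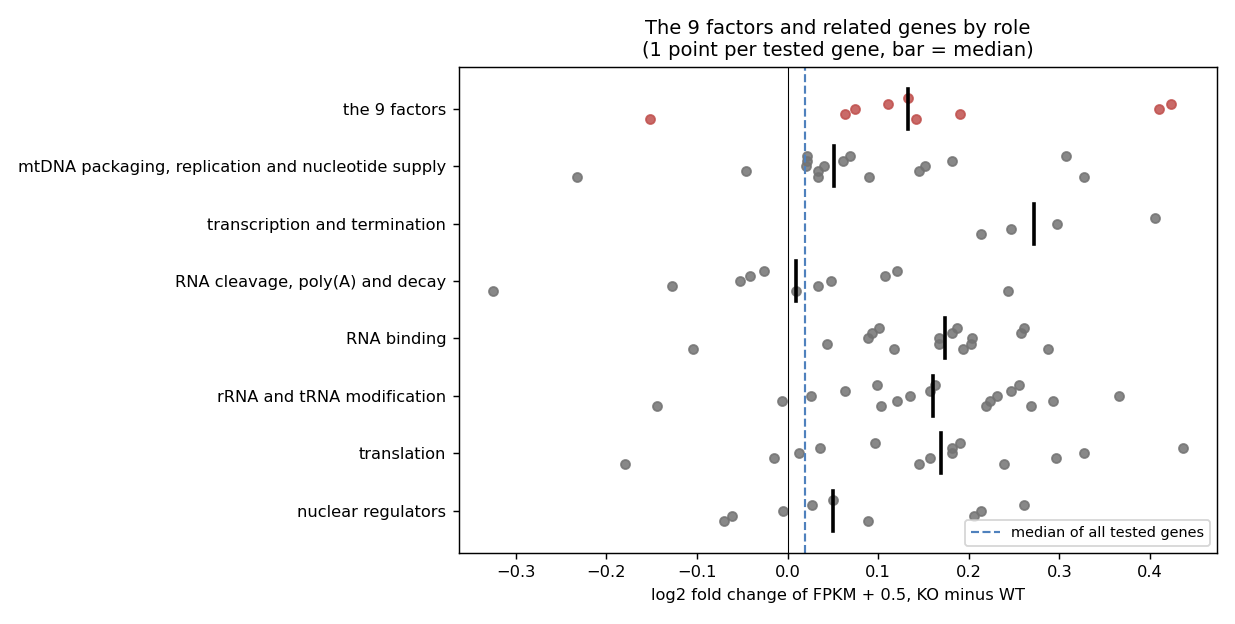
Log2 fold change of FPKM + 0.5, KO minus WT, of the 9 factors (red) and of the 88 tested related genes (grey) by role, with the median of each list as a bar and that of all tested genes (0.02) as a dashed line. The transcription and termination genes lie at 0.21 to 0.41, and RNA cleavage, poly(A) and decay genes on both sides of 0.

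The genes whose log2 levels ran most alike to Mterf2 over the 8 libraries were, as a description, Hrsp12 (r 0.97, rho 0.90), Ppa2 (r 0.97, rho 0.83), Gm11971 (r 0.97, rho 0.94), Vsig4 (r 0.97, rho 0.81) and Npm3 (r 0.97, rho 0.93). Ppa2 is the mitochondrial pyrophosphatase, and Vsig4 a complement receptor of macrophages. Gm11971 was listed at 0 in all libraries labelled WT. The log2 fold changes of Hrsp12, Ppa2, Vsig4 and Npm3 were 0.37, 0.32, 0.89 and 0.21, and 0 of the 5 genes passed in limma (adjusted p 0.143 to 0.353). Summed macrophage markers stood at 26.5 to 44.6 FPKM in the libraries labelled KO and 30.3 to 40.4 FPKM in those labelled WT. Since Mterf2 separates the groups, likeness to it selects genes that do so. For Lrpprc, which does not separate them, the nearest were Dhrs13 (r 0.96, rho 0.95), Sf3a3 (r 0.94, rho 0.81), the entry joining Gm29427 and Pfkfb2 (r 0.93, rho 0.81), Zfp65 (r 0.93, rho 0.81) and Ankra2 (r 0.93, rho 0.69).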

How the data were processed

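The authors deposited 1 table per library, whose values are FPKM per the file headers, with 46036 entries each. Per the submitters' processing notes the tools were FastQC, TopHat2 2.1.1, Bowtie2 2.2.6 and Cufflinks 2.2.1 with build mm10, named without their roles. Annotation, filters and strand setting are not given in the sources used here. Per the labels' protocols, libraries were made from poly(A)-selected RNA with ribosomal depletion and read as 50 M pairs of 150 bases, as stated there. The tables hold no counts, and single reads could not be recovered from the low values of every library, so the depth is unknown and no counting interval is given. The 2379 entries with no name, 65.8% to 93.2% of the summed FPKM, were left out. Of the 344 names on several entries, that with the highest mean was used.

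Tested genes had a mean of 1 FPKM or more. In R 4.3.3, limma 3.58.1 was run on log2(FPKM + 0.5) for KO minus WT (genotype alone, mean trend, two-sided), with Benjamini-Hochberg adjustment over all genes tested. This log2 scale understates the change of low genes. Single values were compared by two-sided exact permutation tests. The fit was tested on simulated data. The labels give no batch, and p-values measure the spread between these mice. The members and lists were chosen with earlier results of these data known. Genes named were the members, Mss51, mt-Nd1, the 3 genes with the smallest p in each related list, and the 5 genes most like Mterf2 and Lrpprc. Other genes named were chosen after their values were seen. Overlaps come from GENCODE M21. A search at 90% identity over 300 bases returned no transcript of another gene for any member. It did not return the genes that share exonic bases with members either, such as Snw1. The empty result is therefore no evidence that copies are absent. Alternatives were pseudocounts of 0.1 and 1 FPKM, no filter or a mean of at least 5 FPKM, other scalings, variance models and treatments of repeated names, a replicate block, and leaving out single libraries; TPM rescaling without dominant entries was added after the data were seen.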

Additional observations from a re-analysis of the deposited data

Results flagged for a closer look

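Mss51 in KO replicate 1, at 340 FPKM, stood apart from the other libraries labelled KO, which had 201, 207 and 216 FPKM; its gap to the nearest was 0.893 of the range of the group. This was the only mark of its kind among 64 groups of 4 libraries looked at, over the members, mt-Nd1, Mss51 and the named related genes; chance gives about 1 in 20 groups.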

How the results depend on the processing

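Mterf2 kept a positive log2 fold change in all 21 alternatives, from 0.22 to 0.46, and passed in none of them; its lowest adjusted p was 0.0711, without KO replicate 1. No member passed in any alternative (limma). The number of all genes past the threshold was 4 to 124 with single libraries left out, the highest without KO replicate 1 and 10 without KO replicate 2, and 119 after TPM rescaling; members above 0 then numbered 7 to 8 and, after TPM rescaling, 2. With the replicate block, 0 genes passed in limma (958 at an unadjusted p under 0.05) and Mss51 had an adjusted p of 0.0530 (log2 fold change 3.07), while Mterf2 had 0.493. The numbers are not shown to pair the mice: deviations of same-numbered libraries correlated at -0.081 to 0.009. Whole-table shifts with scaling were -0.18 for TPM and -0.09 without the dominant entries (median of members -0.063 and 0.018).

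Signs turned after TPM rescaling for Polrmt (-0.063), Tfb1m (-0.063), Polg (-0.13), Polg2 (-0.072), Ssbp1 (-0.020), Lrpprc (-0.15), Ptcd3 (-0.0080), Top1mt (-0.047) and Hsd17b10 (-0.092), without the dominant entries for Polg (-0.044), Lrpprc (-0.057) and Hsd17b10 (-0.0009), after quantile normalization for mt-Nd1 (-0.061), and without KO replicate 3 for Polg2 (-0.036; range with single libraries left out -0.036 to 0.26). Within-library differences turned for Polrmt minus mt-Nd1 without KO replicate 2 (0.025) and WT replicate 1 (0.0070; range -0.18 to 0.025), for Ssbp1 minus mt-Nd1 without WT replicate 1 (range -0.073 to 0.012), and for Polg minus Polg2 without KO replicate 3 (0.15) and WT replicate 3 (0.070; range -0.14 to 0.15). Correlations with mt-Nd1 turned for Tfb2m after TPM rescaling (0.90), for Polrmt with median-ratio scaling (-0.019), with group means removed (-0.58), without KO replicate 4 (-0.23) and without WT replicate 4 (-0.060; range -0.23 to 0.44), and, without the 2 farthest libraries, for Polg (-0.36) and Lrpprc (-0.11). After TPM rescaling the 8 members other than Mterf2 correlated with mt-Nd1 at 0.83 to 0.99, and all 9 passed the adjustment, since each value is divided by the same library factors. The cause of the other turns was not tested. Depth is unknown, so the limit it sets for low genes such as Polg2 is not given.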
